A study of Mus musculus with 4 samples.

Results

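Expression of 2 nuclear long non-coding RNAs (lncRNAs), Malat1 and Neat1, and of the small nucleolar RNA (snoRNA) host genes Gas5, Snhg1, Snhg3, Snhg5, Snhg6, Snhg8 and Snhg12 was examined in leukemic stem cells (LSCs) with and without deletion of Cd37, which encodes a tetraspanin. The genes were chosen by name, and 8 of the 9 were found among the 17104 genes measured. Snhg3 is not analysed here. LSCs sorted as YFP+ and c-kit+ came from bone marrow of mice of the secondary transplantation at 6 weeks, and 2 libraries of CD37 fl/fl and 2 of CD37 -/- cells were sequenced from poly(A) RNA with a strand-marking (dUTP) protocol.

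Both groups descended from lineage-negative marrow cells of CD37 fl/fl mice carrying a tamoxifen-inducible Cre (CreERT2) at the Rosa26 locus, transduced with MLL-AF9 and YFP on 1 retrovirus. Primary recipients were given tamoxifen, which removed the floxed exons and gave CD37 -/- cells, or corn oil, which gave CD37 fl/fl cells. The floxed alleles, the Cre and the MLL-AF9 oncogene are thus shared by both groups, while tamoxifen was given to 1 of them. The labels give strain C57 and male sex for all libraries. Sublethally irradiated recipients retain marrow cells of their own, which the sort for YFP was meant to leave out. The sources used here do not state whether the 2 libraries of a group came from separate mice, so p-values measure only the spread between these libraries.

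Malat1 is a long, mostly unspliced RNA of nuclear speckles, the bodies where splicing factors gather, and Neat1 is the RNA scaffold of paraspeckles, which hold RNA-binding proteins in the nucleus. Both are transcribed from neighbouring genes, and both can end in a tRNA-like structure that RNase P cuts off, leaving a U-rich and A-rich triple helix in place of a poly(A) tail. A snoRNA host gene carries snoRNAs in its introns. After splicing, box C/D snoRNAs guide 2′-O-methylation and box H/ACA snoRNAs guide pseudouridylation of other RNAs, mostly ribosomal RNA. The spliced host RNA is often a terminal oligopyrimidine (TOP) transcript, which begins with a run of C and U as ribosomal protein mRNAs do, and is degraded by nonsense-mediated decay when translated.

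The triple-helix elements are shown because they mark the 3′ ends that lack a poly(A) tail, and the libraries were made from poly(A) RNA. In the GRCm38 genome the element of Malat1 lay at chr19:5795982-5796077 on the minus strand, 292 bases before the end of the annotated transcript of 6983 bases. That of Neat1 lay at chr19:5824708-5824807 on the minus strand and formed the end of the long isoform of 20771 bases. Capitals mark the U-rich motifs and the A-rich tract, of 18 bases in Malat1 and 11 bases in Neat1.
Malat1: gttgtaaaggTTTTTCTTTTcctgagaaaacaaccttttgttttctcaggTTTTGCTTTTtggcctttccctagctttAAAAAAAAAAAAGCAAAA
Neat1: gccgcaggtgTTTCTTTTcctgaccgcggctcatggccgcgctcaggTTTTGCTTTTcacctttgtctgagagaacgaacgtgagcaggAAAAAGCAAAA

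Start sites are shown since a pyrimidine run there is the feature that names TOP transcripts. RefSeq promoters (GRCm38.p6) were found for Malat1 and for 5 of the host genes. The 60 bases around the start, 30 on each side, are given with the longest run of C and T that began within 10 bases of the start in capitals. The sites lay at chr1:161035136-161035195 (Gas5, plus strand, the downstream of 2 starts), chr19:8723457-8723516 (Snhg1, plus), chr9:88522868-88522927 (Snhg5, minus), chr3:123508307-123508366 (Snhg8, minus), chr4:132308648-132308707 (Snhg12, plus) and chr19:5802643-5802702 (Malat1, minus).
Gas5: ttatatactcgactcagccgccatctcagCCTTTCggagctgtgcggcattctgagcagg
Snhg1: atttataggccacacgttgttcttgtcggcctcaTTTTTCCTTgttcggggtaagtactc
Snhg5: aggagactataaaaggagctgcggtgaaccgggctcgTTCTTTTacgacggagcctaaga
Snhg8: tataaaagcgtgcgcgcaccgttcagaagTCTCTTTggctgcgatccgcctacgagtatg
Snhg12: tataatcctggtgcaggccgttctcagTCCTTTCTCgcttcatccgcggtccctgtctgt
Malat1: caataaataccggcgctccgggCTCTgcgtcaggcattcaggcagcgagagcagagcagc

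The run was 9 bases in Snhg1 and Snhg12, 7 in Snhg5 and Snhg8, 6 in Gas5 and 4 in Malat1. Counted from the annotated start, it began at -1 in Gas5 and Snhg8 and at -3 in Snhg12. In Snhg1 it began at 4, in Snhg5 at 7 and in Malat1 at -8, so its length alone does not make a TOP start. Among all 32851 promoters, 23.1% had a run of 6 or more, 14.4% of 7 or more and 6.0% of 9 or more, and the median was 4. At the upstream start of Gas5 the run was 3 bases. A run is a match of letters and shows no regulation.

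The host genes carried 27 annotated snoRNAs at 25 separate places, 10 in Gas5, 8 in Snhg1, 5 in Snhg12, 2 in Snhg5 and 1 each in Snhg6 and Snhg8. These 27 snoRNAs are not analysed here, and the values below are those of the host transcripts and not of the guide RNAs. 1 snoRNA of each host is printed from GRCm38 to show what the introns encode. Capitals mark the C box TGATGA and the D box CTGA of box C/D snoRNAs, or the 3′ ACA of a box H/ACA snoRNA, where these letters were found. They lay at chr1:161038082-161038158 (Snord47, plus strand, in Gas5), chr19:8725866-8725991 (Snord22, plus, in Snhg1), chr9:88521529-88521600 (Snord50a, minus, in Snhg5), chr1:9942463-9942549 (Snord87, minus, in Snhg6), chr3:123507937-123508066 (Snora24, minus, in Snhg8) and chr4:132310691-132310764 (Snord99, plus, in Snhg12).
Snord47: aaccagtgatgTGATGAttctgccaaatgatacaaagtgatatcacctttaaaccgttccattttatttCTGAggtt
Snord22: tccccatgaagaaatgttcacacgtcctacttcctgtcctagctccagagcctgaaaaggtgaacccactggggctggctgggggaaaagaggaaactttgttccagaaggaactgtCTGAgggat
Snord50a: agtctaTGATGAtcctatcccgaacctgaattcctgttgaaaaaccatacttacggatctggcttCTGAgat
Snord87: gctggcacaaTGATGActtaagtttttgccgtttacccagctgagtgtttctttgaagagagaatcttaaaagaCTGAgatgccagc
Snora24: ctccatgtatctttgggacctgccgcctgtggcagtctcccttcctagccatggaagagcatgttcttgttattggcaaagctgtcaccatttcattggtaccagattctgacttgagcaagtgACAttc
Snord99: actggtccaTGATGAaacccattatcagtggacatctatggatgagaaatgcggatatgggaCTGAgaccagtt

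The deposited values are FPKM, fragments scaled by gene length and by library size. They came out as whole reads when the kilobases were those of the whole genomic span, introns included. The implied totals were 15327358 and 17327701 reads for CD37 fl/fl replicates 1 and 2, and 17740457 and 22627493 reads for the CD37 -/- ones. Cd37 had an FPKM of 56.6 and 46.8 in CD37 fl/fl and of 23.2 and 22.9 in CD37 -/- libraries. Of 5 markers of the sorted leukemic cells 4 were measured, and all 4 were detected in every library. Kit, which encodes c-kit, was at an FPKM of 0.170 and 0.325 in CD37 fl/fl, against 0.327 and 0.434 in CD37 -/- libraries (213 to 804 reads), the MLL-AF9 targets Hoxa9 and Meis1 had an FPKM of 38.8 to 47.2 and of 0.512 to 0.884, and Mpo, the myeloperoxidase gene, was at 80.3 and 51.6 against 34.4 and 20.8. Kit and Meis1 were thus lower and Mpo higher in both CD37 fl/fl libraries, and the sum of the 4, which Mpo and Hoxa9 make up nearly whole, was 120 and 94.9 against 82.8 and 64.1. These values are per kilobase of span, which for Kit is 9.18 times its exon length, so levels of different genes are not comparable. By reads, Meis1 had 1092 to 2681 and Hoxa9 4754 to 7600. Granulocyte markers, 6 of 6 measured, summed to an FPKM of 18310 and 3581 in CD37 fl/fl and of 18340 and 10230 in CD37 -/- replicates 1 and 2, and erythroid markers, 7 of 8 measured, to 60.9 and 5.17 against 576 and 143. CD37 fl/fl replicate 2 was thus low in both. In bulk RNA, fewer cells of a type and less RNA per cell cannot be told apart.

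All 8 genes were expressed in all 4 libraries. Gas5 and Malat1 took the most reads, with means of 6676 and 6170 that ranked 443rd and 500th of 17045 genes, followed by Neat1 with 4270 reads. Malat1 took between 0.0283% and 0.0424% of the reads of a library. Snhg5, with 107 to 188 reads per library, was the least covered.

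Per kilobase of exon, the mean level over the 4 libraries was highest for Gas5, the growth arrest-specific host gene (FPKM 99.0 ± 29.7, SD, n = 4), and lowest for Snhg5 (4.72 ± 1.48). Snhg8 (59.0 ± 16.3), Snhg1 (53.1 ± 12.2), Snhg6 (49.4 ± 13.1) and Malat1 (47.4 ± 9.06) had overlapping ranges. Gas5 was above Snhg8 in 4 of 4 libraries, whereas Snhg8 was above Snhg1 in 2 and Snhg6 above Malat1 in 2, so that the order among these is not set beyond their spread. Snhg12 (32.5 ± 13.4) was above Neat1 (11.5 ± 5.17) in 4 of 4 libraries, and Neat1 above Snhg5 in 4 of 4. The level of Neat1 is per kilobase of its long isoform of 20771 bases, although the libraries were made from poly(A) RNA. Its place in this order therefore depends on that length. For Snhg6 the deposited span-based mean was 26.2, since its span is 1.88 times its exon length. The ratio was between 1.0 and 1.1 for the other 7. Exon length joins the exons of all annotated transcripts, so for these 7 it covers all or nearly all of the span. In Snhg1, Snhg8 and Snhg12 it thus includes the introns that hold snoRNAs. The order of levels mixes such lengths with the shorter one of Snhg6.

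**Figure D1:**
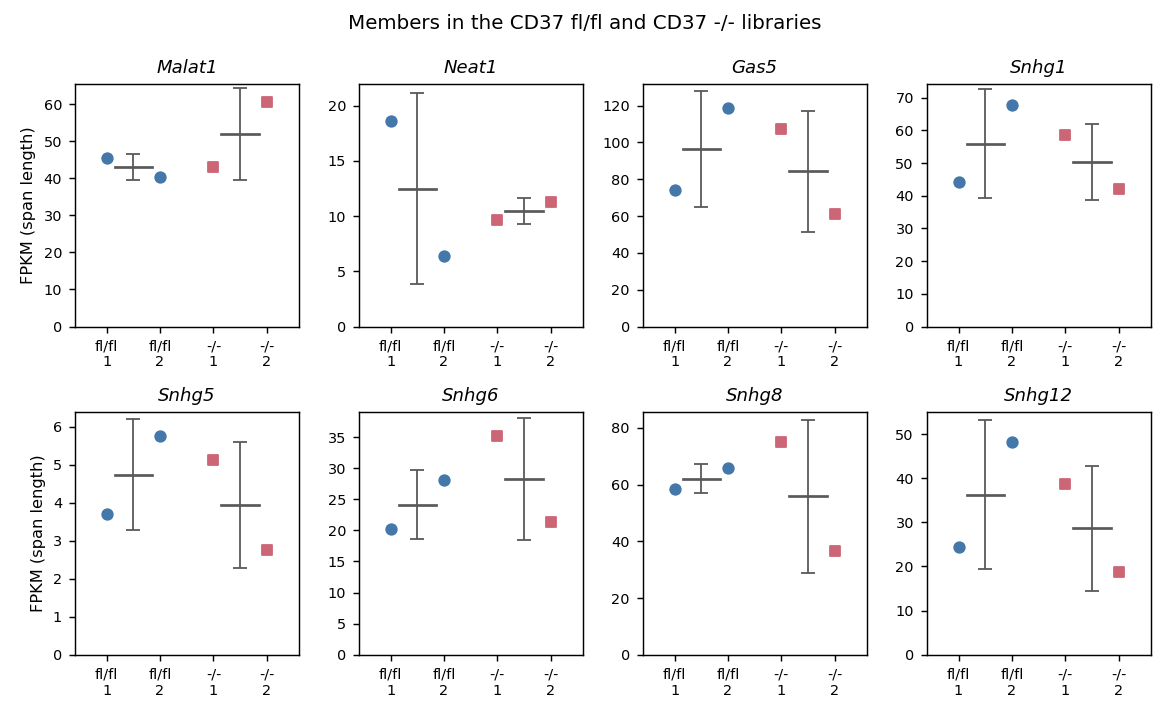
FPKM (per kilobase of genomic span) of the 8 genes in CD37 fl/fl (circles) and CD37 -/- (squares) replicates 1 and 2, with horizontal lines for group means and bars for the SD (n = 2). In every panel the groups overlap, and in the 6 host genes CD37 fl/fl replicate 1 and CD37 -/- replicate 2 are the lower libraries.

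Malat1 (ENSMUSG00000092341, GRCm38 chr19:5795690-5802672, minus strand, lincRNA) had an FPKM of 45.5 and 40.5 in CD37 fl/fl and of 43.1 and 60.6 in CD37 -/- libraries. CD37 -/- replicate 2 stood above the other 3 libraries, and the groups overlapped. The log2 fold change on log2(FPKM + 1) was 0.25 (standard error 0.28, 95% interval -0.45 to 0.94, adjusted p = 0.604, limma with Benjamini-Hochberg adjustment over 6761 genes). This interval still holds a rise of close to 0.94 on the log2 scale.

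Neat1 (ENSMUSG00000092274, chr19:5824708-5845478, minus strand, lincRNA) had an FPKM of 18.6 and 6.38 in CD37 fl/fl and of 9.66 and 11.3 in CD37 -/- libraries. The CD37 fl/fl libraries thus lay on either side of both CD37 -/- libraries, and their 2.92-fold gap was the widest among the 8 genes. The fold change was -0.07 on the log2 scale (standard error 0.46, interval -1.22 to 1.08, adjusted p = 0.936, limma with Benjamini-Hochberg adjustment). Without CD37 fl/fl replicate 2, the library low in granulocyte markers, it was -0.78, and without CD37 fl/fl replicate 1 it was 0.63. With 1 CD37 fl/fl library left, that library is assumed to vary like the other group. The part of these markers in the values of Neat1 was not tested. Neat1 has a short polyadenylated and a long isoform that share the 5′ part, and the deposited value does not separate them.

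The genes of Malat1 and Neat1 lie 22036 bases apart, with 0 annotated genes other than predicted ones between them. The ratio of Malat1 to Neat1 per kilobase was 2.44 and 6.35 in CD37 fl/fl, against 4.46 and 5.38 in CD37 -/- libraries. Its size depends on the length taken for Neat1, that of the long isoform, which is the same in every library. The ratios overlapped between the groups (exact permutation test of the log2 ratios, two-sided p = 1, where 0.333 is the smallest p that 2 against 2 libraries allow).

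Gas5 (ENSMUSG00000053332, chr1:161034422-161038539, plus strand, processed transcript) had an FPKM of 74.2 and 119 in CD37 fl/fl and of 107 and 61.2 in CD37 -/- libraries. The highest library was CD37 fl/fl replicate 2 and the lowest CD37 -/- replicate 2, but CD37 -/- replicate 1 lay above CD37 fl/fl replicate 1, so the groups overlapped. The log2 fold change was -0.21 (standard error 0.40, interval -1.19 to 0.77, adjusted p = 0.760, limma with Benjamini-Hochberg adjustment).

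Snhg1 (ENSMUSG00000108414, chr19:8723475-8726443, plus strand, processed transcript) hosts a cluster of box C/D snoRNAs and had an FPKM of 44.1 and 67.7 in CD37 fl/fl and of 58.5 and 42.0 in CD37 -/- libraries. The order of the libraries was that of Gas5. Its log2 fold change was -0.14 (standard error 0.33, interval -0.95 to 0.67, adjusted p = 0.814, limma with Benjamini-Hochberg adjustment). Slc3a2, which encodes the heavy chain of the CD98 amino acid transporter, starts 106 bases away on the opposite strand and had an FPKM of 18.5 and 20.8 in CD37 fl/fl and of 25.9 and 27.4 in CD37 -/- libraries. Unlike Snhg1, Slc3a2 did not overlap between the groups, which was so for 61.9% of all tested genes. The log2 fold change of Slc3a2, 0.42, did not pass limma (adjusted p = 0.295). The difference between both genes was not tested.

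Snhg12 (ENSMUSG00000086290, chr4:132308623-132311024, plus strand, lincRNA) had an FPKM of 24.3 and 48.1 in CD37 fl/fl and of 38.7 and 18.7 in CD37 -/- libraries. It had the widest range of the host genes, 2.58-fold from the lowest to the highest library, and the largest fold change of the 8 genes in size. That fold change was -0.34 on the log2 scale (standard error 0.47, interval -1.50 to 0.82, adjusted p = 0.672, limma with Benjamini-Hochberg adjustment). Trnau1ap, a selenocysteine tRNA factor whose gene lies 739 bases away, ranged from 3.17 to 4.30 and was lowest in the same library, CD37 -/- replicate 2.

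Snhg8 (ENSMUSG00000104960, chr3:123507552-123508404, minus strand, processed transcript) had an FPKM of 58.5 and 65.8 in CD37 fl/fl and of 75.0 and 36.7 in CD37 -/- libraries. Both CD37 fl/fl libraries lay between the CD37 -/- libraries. Its log2 fold change was -0.24 (standard error 0.39, interval -1.19 to 0.72, adjusted p = 0.724, limma with Benjamini-Hochberg adjustment). The nearest annotated genes, Prss12 and Ndst3, had an FPKM of at most 0.0208 in all 4 libraries.

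Snhg6 (ENSMUSG00000098234, chr1:9941959-9944118, minus strand, lincRNA) had an FPKM of 20.2 and 28.1 in CD37 fl/fl and of 35.2 and 21.4 in CD37 -/- libraries, and was the only host gene with a higher mean in CD37 -/- LSCs as deposited. The groups overlapped, with a log2 fold change of 0.20 (standard error 0.33, interval -0.62 to 1.01, adjusted p = 0.731, limma with Benjamini-Hochberg adjustment), which was -0.06 after division by the upper quartile. Set against Gas5 per kilobase of exon, Snhg6 stood at 0.469 and 0.406 in CD37 fl/fl, against 0.565 and 0.601 in CD37 -/- libraries. This ratio did not overlap between the groups, with a two-sided exact permutation p of 0.333, the smallest the design allows. It was 1 of 5 ratios computed, and adjusted over the 5 each p was 1.

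Snhg5 (ENSMUSG00000097195, chr9:88521050-88522929, minus strand, processed transcript) had an FPKM of 3.71 and 5.77 in CD37 fl/fl and of 5.12 and 2.77 in CD37 -/- libraries, from 107, 188, 171 and 118 reads. The groups overlapped in the way of Gas5, and the log2 fold change was -0.23 (standard error 0.31, interval -1.0 to 0.53, adjusted p = 0.658, limma with Benjamini-Hochberg adjustment). Syncrip, the next gene on its left, 38476 bases away, encodes an mRNA-binding protein and had an FPKM of 0.651, 1.27, 1.65 and 2.40.

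**Figure D2:**
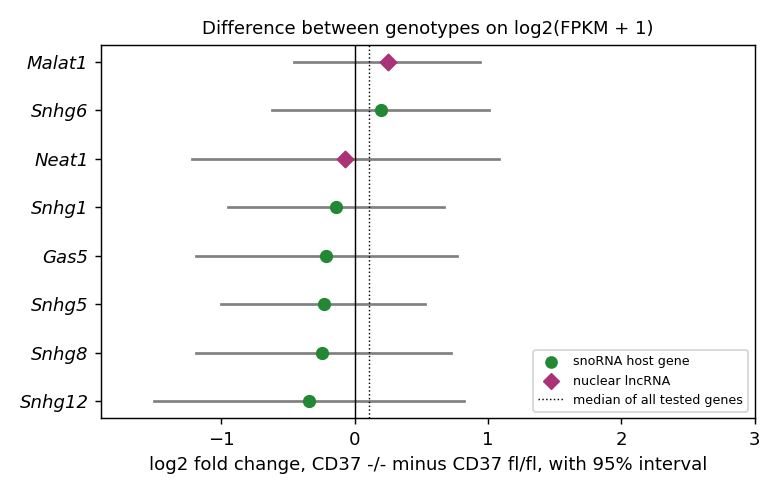
Log2 fold change of each gene (CD37 -/- minus CD37 fl/fl, on log2(FPKM + 1)) with its 95% limma interval. Circles are host genes, diamonds are Malat1 and Neat1, and the dotted line is the median of all 6761 tested genes, 0.11. All 8 intervals include 0.

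Of the 8 genes, 0 passed an adjusted p of 0.05 in limma, as did 0.0% of all tested genes. The count at an unadjusted p under 0.05 was also 0 of 8, against 24.0% of all tested genes (1626 of 6761, 16.1% higher and 7.96% lower). None of the 8 separated the groups, which 61.9% of all tested genes did. The median log2 fold change of the 8 was -0.17, with 2 positive and 6 negative values, beside 0.11 for all tested genes. The sign of each of the 8 reversed under at least 1 of 3 other scalings. The median of the 8 was 0.20 after rescaling each library to 1 FPKM sum (TPM), -0.03 after quantile normalization and -0.42 after division by the upper quartile, where the medians of all tested genes were 0.40, -0.02 and -0.09.

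The host genes shared an order of libraries that crossed the groups, which was noticed in the values and is given as a description without a test. In all 6, CD37 fl/fl replicate 2 was above replicate 1 and CD37 -/- replicate 1 above replicate 2, an order held by 29.9% of all tested genes. In all 6, CD37 fl/fl replicate 1 and CD37 -/- replicate 2 were the lowest libraries, as in 13.7% of all tested genes. The first order was kept in 6 of 6 after TPM rescaling, quantile normalization and division by the upper quartile, and the second in 5, 6 and 6. Neither Malat1 nor Neat1 had either order, and in both genes every replicate difference had the opposite sign.

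Within a group, the host genes differed by more than most genes. The median log2 difference between the replicates (second minus first) was 0.57 in CD37 fl/fl and -0.75 in CD37 -/-, beside 0.09 and 0.01 over all tested genes. The absolute difference had a median of 0.68 in the host genes and of 0.23 over all tested genes. Summed over the 6, the FPKM was 225 and 334 in CD37 fl/fl, against 320 and 183 in CD37 -/- libraries. The granulocyte and erythroid sums above were both lowest in CD37 fl/fl replicate 2 and highest in CD37 -/- replicate 1. Neither marker sum had the library order of the host genes. The part of other cells in this order was not tested. Since the 6 genes come from the same 4 libraries, they are not separate evidence of it.

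**Figure D3:**
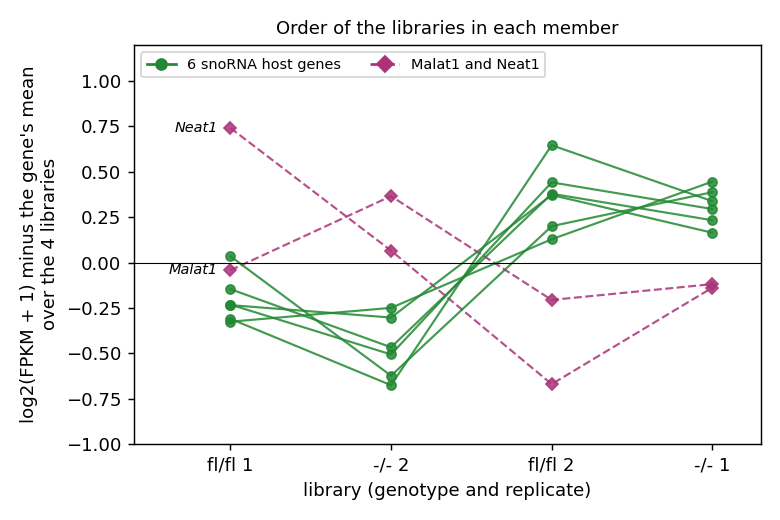
Log2(FPKM + 1) of each gene minus its own mean over the 4 libraries, with the libraries ordered so that the host genes' lower ones (CD37 fl/fl replicate 1 and CD37 -/- replicate 2) stand on the left. The 6 host genes (solid lines) lie higher on the right, and Malat1 and Neat1 (dashed lines) do not. Lines join libraries for the eye and mark no time or dose.

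The ratio of Gas5 to Snhg1 per kilobase of exon was 1.84 and 1.92 in CD37 fl/fl, against 2.01 and 1.59 in CD37 -/- libraries, and that of Gas5 to Snhg12 was 3.34 and 2.70 against 3.04 and 3.59. Malat1 to Gas5 moved more, with 0.559 and 0.311 against 0.367 and 0.905. None of these ratios separated the groups (log2 differences -0.07, 0.14 and 0.47, two-sided exact permutation p = 1, 0.667 and 0.667).

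Of the 3118 tested genes whose mean FPKM reached 5, those whose centred log2 values over the 4 libraries lay nearest to Gas5 were Llph, encoding a nucleolar protein (Euclidean distance 0.12), Ndufc2, a subunit of respiratory complex I (0.14), and Rpl22l1, a ribosomal protein paralog (0.15). Snhg1 ranked 11th (0.25) and Snhg12 15th (0.28), Snhg8 66th and Snhg6 121st, whereas Malat1 ranked 2332nd and Neat1 2823rd. Nearest to Malat1 were Son, a scaffold protein of nuclear speckles (0.04), Lcp1, an actin-bundling protein of blood cells (0.04), and Trim56, a ubiquitin ligase (0.07). Son had an FPKM of 9.31, 8.01, 8.87 and 12.3, in the order of Malat1, which is what a small distance selects for. The distances describe these 4 libraries only.

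Other snoRNA host genes were set beside the 6. Of 14 further non-coding hosts, 6 were tested, with 0 at an unadjusted p under 0.05 and a median log2 fold change of -0.70. Zfas1 had an FPKM of 42.3 and 63.9 in CD37 fl/fl and of 39.3 and 17.0 in CD37 -/- libraries, a log2 fold change of -0.98. Epb41l4aos (-0.84) and Snhg20 (-0.81) also separated the groups, as 61.9% of all tested genes did, and like Zfas1 they did not pass the test. Of these 6 genes, 5 had CD37 fl/fl replicate 2 above 1 and CD37 -/- replicate 1 above 2, but in 1 of the 6 were CD37 fl/fl replicate 1 and CD37 -/- replicate 2 the lowest. Of the 15 protein-coding hosts, all tested, 1 was higher and 1 lower at an unadjusted p under 0.05 (median 0.18). The higher one was the translation factor Eif4a2 (log2 fold change 1.13), and 0 passed the adjusted p. Over all tested genes, 16.1% were higher and 7.96% lower at an unadjusted p under 0.05.

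Ribosomal protein genes, the classical TOP transcripts, had a median log2 fold change of -0.61 over 74 tested genes. At an unadjusted p under 0.05, 20 were lower and 0 higher, beside 7.96% and 16.1% of all tested genes. Without overlap of the groups 43 were lower, against 1602 of 6761 genes overall. Among those with the largest values were Rpl14 (-1.71) and Rpl29 (-1.47). Of the 74, 62 shared the replicate order of the host genes (83.8%, beside 29.9% of all tested genes). In 25, CD37 fl/fl replicate 1 and CD37 -/- replicate 2 were the lowest (33.8%, beside 13.7%). Reads of ribosomal protein genes can be shared with processed pseudogenes. The 16 other TOP genes had a median of -0.18, with 1 higher (Pabpc1, the poly(A)-binding protein, 1.05) and 2 lower (the elongation factor subunits Eef1d, -1.07, and Eef1g, -0.86) at an unadjusted p under 0.05. Those counts stand beside 16.1% and 7.96% of all tested genes.

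Proteins of the snoRNA particles (snoRNPs) held values in both directions. The 4 box C/D proteins had a median of -0.08 and 0 genes at an unadjusted p under 0.05. Nop58 was at 0.55, Snu13 at -0.35 and Nop56, itself a snoRNA host, at -0.26. Of the 4 box H/ACA proteins (median -0.33), the pseudouridine synthase Dkc1 was higher (log2 fold change 0.86) and Nhp2 lower (-0.91), both at an unadjusted p under 0.05 in limma. Such a p was found in 24.0% of all tested genes. Of 11 assembly factors 9 were tested, with 0 at an unadjusted p under 0.05 and a median of -0.15, and Pih1d1 (-0.58), Nop53 (-0.54) and Znhit3 (0.33) had the largest values.

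The protein partners of both nuclear lncRNAs were set beside them. Among 10 tested nuclear speckle proteins the median was 0.41, with 4 higher and 0 lower at an unadjusted p under 0.05, beside 16.1% and 7.96% of all tested genes. The pinin gene Pnn had an FPKM of 13.1 and 18.3 in CD37 fl/fl and of 26.1 and 27.9 in CD37 -/- libraries (0.76), and the splicing factors Srsf5 (0.76) and Srrm1 (0.66) were also higher in both CD37 -/- libraries. Over all tested genes, 2583 of 6761 were higher without overlap of the groups. Among 11 tested paraspeckle proteins the median was 0.19, with 3 higher and 0 lower at an unadjusted p under 0.05, among them the RNA-binding proteins Ewsr1 (0.77) and Hnrnph3 (0.51). Both medians depended on the scaling: that of the nuclear speckle proteins was 0.77 after TPM rescaling, 0.47 after quantile normalization and 0.16 after division by the upper quartile, and that of the paraspeckle proteins was 0.56, 0.28 and 0.03, where the medians of all tested genes were 0.40, -0.02 and -0.09. No gene of either list passed the adjusted p of limma.

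Genes that process or degrade these RNAs held values in both directions as well. Of 16 tested genes of the nuclear exosome and its adaptors, the adaptor Zcchc8 (0.88) was higher and 3 were lower at an unadjusted p under 0.05, among them the core subunits Exosc5 (-0.78) and Exosc4 (-0.76), with a median of 0.06. Of 11 nonsense-mediated decay factors (median -0.07), 1 was higher, the SMG1 kinase partner Smg8 (0.77). Among all tested genes, 16.1% were higher and 7.96% lower at an unadjusted p under 0.05. The 10 tested enzymes of the tRNA-like 3′ end, RNase P subunits and partners, had 0 at an unadjusted p under 0.05 and a median of 0.02, with Pop5 and Rpp21 at -0.51 and Rpp25 at 0.40. Of 17 other nuclear or long non-coding RNAs 3 were tested, and Mir142hg (-0.72), Mir17hg (0.16) and Tug1 (-0.04) all overlapped between the groups. Under these 3 scalings the median stayed below 0 for the ribosomal protein genes (-0.87 to -0.23) and the further non-coding hosts (-0.93 to -0.37), and changed sign under at least 1 of them for the protein-coding hosts, the other TOP genes, the snoRNP proteins and assembly factors, the decay, exosome and 3′ end lists and the other long non-coding RNAs.

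**Figure D4:**
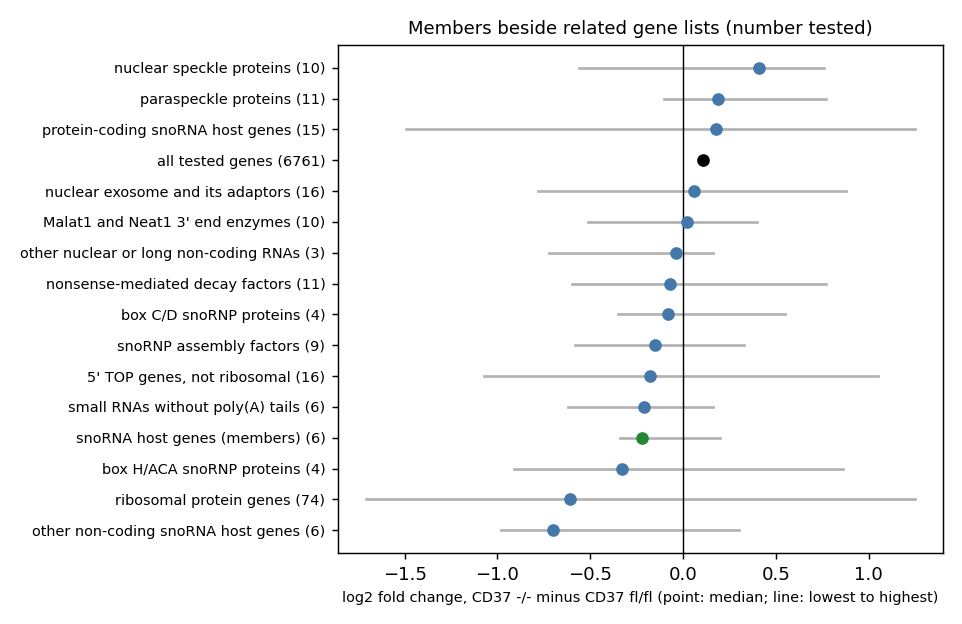
Median log2 fold change (points) and lowest to highest value (lines) of the 6 host genes, in green, and of related gene lists, with the number of tested genes in brackets. The median of all tested genes (black) is 0.11. The 6 host genes span -0.34 to 0.20, and the ribosomal protein genes -1.71 to 1.25.

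The 6 small RNAs without poly(A) tails, which the selection for poly(A) RNA should leave out, were all tested. Their median log2 difference between CD37 -/- replicates 2 and 1 was -2.15, and 4 of 6 had CD37 fl/fl replicate 1 and CD37 -/- replicate 2 as the lowest. Snord104 had an FPKM of 167 and 147 in CD37 fl/fl and of 196 and 52.4 in CD37 -/- libraries, Scarna2 of 5.20 and 2.93 against 5.58 and 0.641, and Rnu12 of 4.75 and 9.17 against 14.6 and 1.17. In the same order of libraries, these came from 179, 178, 244 and 83 reads for Snord104. Scarna2 had only 33, 21, 41 and 6 reads, and Rnu12 only 11, 24, 39 and 4. All 3 overlapped between the groups, and 0 of 6 had an unadjusted limma p under 0.05. CD37 -/- replicate 2 was the lowest library for these 3 as for Gas5, Snhg1, Snhg5, Snhg8 and Snhg12. It had the lowest FPKM sum over all genes, 181944, against 217309 in CD37 -/- replicate 1 and 260590 and 257393 in CD37 fl/fl libraries. The share of all tested genes lowest in this library is not given here. The part of RNA selection in the values of the host genes was not tested.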

How the data were processed

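Bone marrow LSCs of 2 CD37 fl/fl and 2 CD37 -/- libraries were compared. The authors deposited FPKM values for 17104 genes, 1 column per library. The submitters' processing notes name fastp 0.20.1, STAR 2.7.7a, featureCounts 2.0.0, edgeR and the build mm39, with no role or order. The annotation and the strand setting are not given in the sources used here. Names and positions came from GENCODE M21 on GRCm38 (17045 identifiers matched, 99.7%). It was used since with its gene spans 98.9% of the values above 0 came out as whole reads within 0.05, which chance gives for 10% of values. Library totals were fitted with these spans and are implied by them. With exon length and the same totals, the share was 12.4% to 13.0% in genes with few reads and a span well above exon length. No totals were fitted with exon length, so the shares are not like for like. Replicates differed by more than sampling noise (chi-square per degree of freedom 101.8 and 66.5).

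The 6761 genes whose mean FPKM reached 1 were tested on log2(FPKM + 1), a scale that understates changes of low genes, with limma 3.58.1 (R 4.3.3, lmFit and eBayes with a trend) without a replicate block, Benjamini-Hochberg adjustment and a threshold of 0.05. The code was tested on simulated data. Python 3.11.15 was used with matplotlib 3.10.9 (figures), numpy 2.4.6, scipy 1.17.1 and pandas 2.3.3.

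The genes and the related lists were chosen with earlier results of these data known. Named are all members, at most 3 genes per list (largest absolute fold change at an unadjusted p under 0.05, or largest change where none), nearest neighbours with a known name, and the 3 genes most like Malat1 and Gas5. Some genes that meet this rule are not reported here. Overlaps on the opposite strand were found for Gas5 with Zbtb37, for Snhg6 with Mcmdc2 and for Malat1 with the predicted gene Gm37376 (453 bases). Alternatives were other pseudocounts, filters, scalings and variance models, exon length, limma-voom on recovered reads, a replicate block and each library left out.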

Additional observations from a re-analysis of the deposited data

How the results depend on the processing

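No member passed an adjusted p of 0.05 in limma under any of 15 alternatives, and 0 of 8 had an unadjusted p under 0.05 in all but 1 of them (Snhg5 was not tested with a mean FPKM of at least 5). Leaving out each library gave between 0 and 1 such members, the 1 being Neat1 without CD37 fl/fl replicate 2 (-0.78), a fit in which the spread comes from the CD37 -/- libraries and the lone CD37 fl/fl library is assumed to vary like them. Over all tested genes, the count at an adjusted p was 0 as reported, 45 with a mean FPKM of at least 5, 88 with robust variance estimation, 16 with exon length and 73 with the replicate number as a block, where each member kept its fold change (median -0.17) and 0 of 8 passed. The sources used here do not say whether replicate numbers pair the libraries. Deviations of same-numbered libraries correlated at -0.04 over 6761 genes, but with 2 pairs this cannot settle whether they are paired. With exon length, 5 of the 8 members kept their rank of mean level.

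Signs were less stable, with 23 of 119 values of members reversed, 10 of them outside the omission of libraries. Reversed were Gas5 (0.06) and Snhg1 (0.02) after quantile normalization, Gas5 (0.17), Snhg8 (0.14), Snhg1 (0.24), Snhg12 (0.03), Neat1 (0.28) and Snhg5 (0.07) after TPM rescaling, and Snhg6 (-0.06) and Malat1 (-0.02) after division by the upper quartile. Leaving out each library gave ranges of -0.61 to 0.19 for Gas5, -0.74 to 0.27 for Snhg8, -0.44 to 0.17 for Snhg1, -0.84 to 0.17 for Snhg12, -0.58 to 0.12 for Snhg5, -0.15 to 0.54 for Snhg6, -0.78 to 0.63 for Neat1 and 0.01 to 0.49 for Malat1. The causes were not tested. With 2 libraries per group, the printed intervals cover only the spread between these libraries under the deposited scaling. They do not include the differences between scalings.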
